A study of Homo sapiens with 12 samples.

Results

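The circadian clock genes PER1, PER2, PER3, CRY1, CRY2, NR1D1, NR1D2, BHLHE40, DBP and CLOCK were followed over 12 Illumina HT-12v4 bead arrays of T47D-Y cells, a T47D breast cancer subline without progesterone receptor (PR). They were chosen by gene name, and all of their probes in the value table were taken, which gave 10 genes and 14 probes among 20046 genes and 47231 probes. The lines, expanded from single-cell clones selected for their vector, held no receptor (empty vector, PR-null), wild-type PR-B (WT) or K388R PR-B (KR), in which the lysine that takes SUMO is lost. All lines were starved of serum and then exposed for 6 h to the synthetic progestin R5020 or to its ethanol vehicle, with duplicate arrays in each of the 6 groups. The question was how R5020 moved these genes through each receptor, and how the lines differed without ligand.

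The clock is a feedback loop of transcription that most cells carry. CLOCK and BMAL1 bind E-boxes as a pair and switch on the PER and CRY genes, whose proteins return to the nucleus and shut that pair off. The same pair drives NR1D1 and NR1D2 (REV-ERB alpha and beta), nuclear receptors that repress BMAL1, and DBP, an activator that binds D-boxes in output genes. BHLHE40 (DEC1) is a repressor that occupies E-boxes itself. In cell culture such loops can be reset by serum and by steroid hormones, and PR binds inverted repeats of a short hexamer, together the progesterone response element. The arrays hold no time but 6 h, so a changed level and a loop shifted in time cannot be told apart.

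The 250 bases before the annotated start are shown for the 4 genes that the results below turn on, BHLHE40 (chr3:4979187-4979436, plus strand), DBP (chr19:48637380-48637629, minus strand), CRY1 (chr12:107093550-107093799, minus strand) and CRY2 (chr11:45847225-45847474, plus strand). The sequences are from RefSeq on GRCh38.p14, are written 5′ to 3′ along the gene, and carry in capitals the matches to the motifs described after them.
BHLHE40: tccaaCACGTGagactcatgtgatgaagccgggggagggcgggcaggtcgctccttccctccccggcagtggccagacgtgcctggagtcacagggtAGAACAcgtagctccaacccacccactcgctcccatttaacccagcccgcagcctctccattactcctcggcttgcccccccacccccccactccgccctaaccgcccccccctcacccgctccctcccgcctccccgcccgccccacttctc
DBP: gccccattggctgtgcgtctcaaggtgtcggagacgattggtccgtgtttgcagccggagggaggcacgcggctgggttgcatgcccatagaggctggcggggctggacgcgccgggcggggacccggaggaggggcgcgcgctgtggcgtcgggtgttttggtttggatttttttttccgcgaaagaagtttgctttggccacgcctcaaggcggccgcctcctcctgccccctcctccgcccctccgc
CRY1: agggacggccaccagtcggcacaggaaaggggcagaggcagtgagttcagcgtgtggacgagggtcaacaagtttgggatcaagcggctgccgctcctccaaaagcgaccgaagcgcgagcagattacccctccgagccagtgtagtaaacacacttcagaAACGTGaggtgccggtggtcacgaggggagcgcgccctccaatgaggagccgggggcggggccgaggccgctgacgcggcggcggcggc
CRY2: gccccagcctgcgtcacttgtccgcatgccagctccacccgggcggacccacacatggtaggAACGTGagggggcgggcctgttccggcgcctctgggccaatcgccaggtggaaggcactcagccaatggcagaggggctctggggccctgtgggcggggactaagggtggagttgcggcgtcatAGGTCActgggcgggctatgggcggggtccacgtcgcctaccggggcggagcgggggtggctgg

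Motifs were searched on both strands. All 10 genes had a window, 14 windows in all, and 35116 windows of the same length served for comparison. The E-box CACGTG was found for BHLHE40, NR1D2 and PER1, and lay in 6.34% of all windows. Its variant CACGTT was found for CLOCK, CRY1, CRY2, NR1D1 and PER2, and lay in 4.55% of all windows. In the windows shown, the E-box of BHLHE40 ran from -245 to -240 relative to the start, the variant of CRY1 from -89 to -84 and that of CRY2 from -188 to -183, both of the last on the opposite strand. The D-box TTATGTAA was found for NR1D2 and PER3, against 0.834% of all windows. The nuclear receptor hexamer AGGTCA was found for CRY2 (-64 to -59) and PER1, against 12.1% of all windows. The PR hexamer TGTTCT was found for BHLHE40 alone of these 10 genes, on the opposite strand from -153 to -148. It lay in 12.4% of all windows. Neither the full progesterone response element (0.327% of all windows) nor the cyclic AMP element TGACGTCA (1.65%) was found in a window of these genes. No motif of the set was found for DBP. The full element can overlap the PR hexamer, and no motif of the set contains another. A gene is named above where any of its windows matched, whereas the shares count single windows. Of the 14 windows, 3 held the E-box, 5 its variant, 2 the D-box, 3 AGGTCA and 1 TGTTCT. A match is a description of the letters only.

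Array quality was even. Replicate arrays correlated at 0.995 in every group, with standard deviations between replicates of 0.114 to 0.120 log2 units, and 44.3% to 44.4% of probes lay above a background limit of 6.09, set from olfactory receptor probes. PGR, the receptor gene, averaged 5.42 and 5.44 in PR-null cells with vehicle and R5020, 8.55 and 7.59 in WT cells, and 8.91 and 9.69 in KR cells. All 6 luminal epithelial markers were above background in every group, and of 9 markers of other cell types only COL1A1 was, at 6.15 to 6.44. Values below are log2 intensities of the brightest probe of a gene, differences are given ± standard error, and a gene was called at a log2 difference over 0.6 (1.52-fold) and a limma adjusted p under 0.01 over all probes. Levels of different genes are not compared, since probes differ in brightness.

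In WT cells, BHLHE40 and DBP were called lower with R5020. In KR cells CRY2 was called higher and no clock gene was called lower, while in PR-null cells none was called in either direction. DBP and BHLHE40 also lay lower with R5020 in KR cells (-0.53 and -0.37), and CRY2 higher in WT cells (0.37), all short of a call. Only for BHLHE40 was the difference between KR and WT effects called. By count, 2 of the 10 genes were called in WT cells, beside 5.29% of all genes, and 8.07% of the genes above background on at least 2 arrays. In KR cells 1 of 10 was called, beside 4.08% of all genes, a count too small to read against that share. In PR-null cells 0 of 10 were called, beside 0% of all genes, and 1 gene, PER1, had an unadjusted p under 0.05. The median effect over the 10 genes was 0.03 in PR-null, 0.08 in WT and -0.03 in KR cells, and over all genes it was 0.00, -0.01 and -0.02. PER1 and NR1D1 lay under the background limit on all 12 arrays, so a fold cannot be read for them, whereas the other 8 genes were above it on every array.

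**Figure D1:**
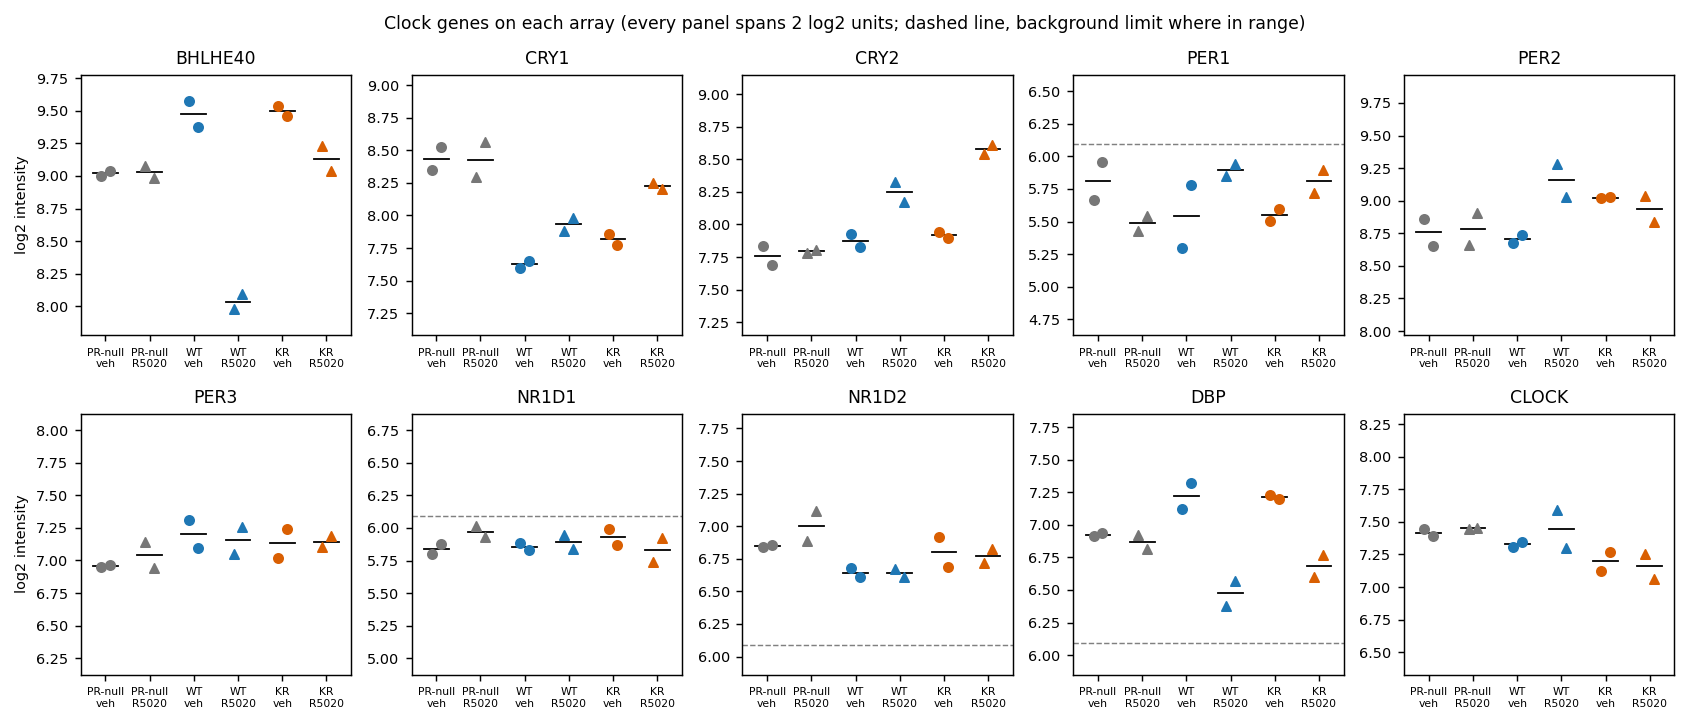
Log2 intensity of each of the 10 clock genes (brightest probe) on every array, by line and treatment, with points for arrays, bars for group means and the background limit of 6.09 as a dashed line. BHLHE40 lies lowest on both R5020-treated WT arrays (7.98 and 8.09), and CRY1 lies highest on the 4 PR-null arrays.

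BHLHE40 read 9.57 and 9.38 in vehicle-treated WT cells, and 7.98 and 8.09 after R5020. It read 9.54 and 9.46 in vehicle-treated KR cells, and 9.23 and 9.04 after R5020. In PR-null cells it read 9.00 and 9.04 with vehicle, and 9.08 and 8.99 with R5020. The treated WT arrays were the lowest of the 12, below the treated KR arrays and all PR-null arrays, and the PR-null arrays overlapped between treatments. The log2 difference with R5020 was -1.44 ± 0.11 in WT cells (2.71-fold lower, limma adjusted p = 5.7e-14). In KR cells it was -0.37 ± 0.11 (adjusted p = 0.0359), which did not meet the threshold although both treated arrays lay under both vehicle arrays. In PR-null cells it was 0.01 ± 0.11. In such bulk RNA, fewer cells that express a gene and less of its RNA in each cell cannot be told apart.

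The response of BHLHE40 differed between the KR and WT lines. The R5020 effect was 1.07 ± 0.16 log2 units higher in KR than in WT cells (95% confidence interval 0.75 to 1.39, limma adjusted p = 2.02e-05), and BHLHE40 was the only clock gene called in that comparison, 1 of 10 beside 1.01% of all genes. In the R5020-treated cells themselves it was 2.14-fold higher in KR than in WT cells (log2 difference 1.10 ± 0.11, adjusted p = 8e-10), again 1 of 10 genes, beside 2.56% of all. With vehicle, the receptor lines differed by 0.02 ± 0.11. PGR itself averaged 9.69 in KR and 7.59 in WT cells with R5020, and its part in the difference was not tested. Ordered by mean level, BHLHE40 ran from R5020-treated WT cells (8.04) through vehicle-treated PR-null (9.02), R5020-treated PR-null (9.03) and R5020-treated KR cells (9.13) to vehicle-treated WT (9.48) and KR cells (9.50). The 3 groups in the middle overlapped array by array, as did the 2 at the top.

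DBP, the D-box activator, read 7.12 and 7.32 in vehicle-treated WT cells, and 6.38 and 6.57 after R5020. It read 7.23 and 7.20 in vehicle-treated KR cells, and 6.60 and 6.77 after R5020. PR-null cells gave 6.91 and 6.94 with vehicle, and 6.92 and 6.81 with R5020. In both receptor lines the treated arrays lay under the vehicle arrays and under the PR-null arrays. The log2 difference was -0.75 ± 0.11 in WT cells (1.68-fold lower, limma adjusted p = 2.14e-06) and -0.53 ± 0.11 in KR cells (1.44-fold lower, adjusted p = 9.28e-04). The KR value had a low adjusted p but fell short of the limit on size, which DBP passed (-0.61) once replicate 2 of the R5020-treated KR cells was left out. The effects in KR and WT cells differed by 0.22 ± 0.16 (95% confidence interval -0.10 to 0.54, adjusted p = 0.772), so a difference of up to about that upper bound could not be told from none. In PR-null cells the effect was -0.06 ± 0.11.

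CRY2, a cryptochrome that represses CLOCK and BMAL1, rose in KR cells. It read 7.94 and 7.89 in vehicle-treated KR cells, and 8.54 and 8.61 after R5020. In WT cells it read 7.92 and 7.83 with vehicle, and 8.32 and 8.17 after R5020. In PR-null cells it read 7.83 and 7.69 with vehicle, and 7.78 and 7.80 with R5020. The treated arrays of each receptor line lay above its vehicle arrays, and the treated KR arrays were the highest of the 12. The log2 difference was 0.66 ± 0.11 in KR cells (1.58-fold higher, limma adjusted p = 1.81e-05) and 0.37 ± 0.11 in WT cells (1.29-fold higher, adjusted p = 0.0204), and only the first was called. The effects differed between KR and WT cells by 0.29 ± 0.15 (95% confidence interval -0.03 to 0.60, adjusted p = 0.615), so CRY2 was not shown to respond differently in the 2 lines.

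CRY1, the stronger repressor of the cryptochromes, was measured by 2 probes. The brighter one read 7.60 and 7.65 in vehicle-treated WT cells and 7.88 and 7.98 after R5020. In KR cells it read 7.86 and 7.78 with vehicle, and 8.25 and 8.21 after R5020. The log2 difference was 0.31 ± 0.11 in WT cells (adjusted p = 0.0878) and 0.41 ± 0.11 in KR cells (adjusted p = 0.0160), neither called, although no treated array overlapped a vehicle array of its line. The second probe gave larger differences, from 7.40 and 7.23 to 7.99 and 7.92 in WT cells (0.64 ± 0.12, adjusted p = 6.15e-05) and from 7.47 and 7.75 to 8.20 and 8.20 in KR cells (0.59 ± 0.12, adjusted p = 2.58e-04). By that probe alone CRY1 was called higher in WT cells, and the KR value fell just under the limit on size. In PR-null cells the R5020 effect was -0.01 ± 0.11 by the brighter probe and 0.09 ± 0.12 by the second.

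Among the PER genes, which form the repressive complex with the cryptochromes, none was called in any comparison. PER2 read 8.67 and 8.73 in vehicle-treated WT cells and 9.28 and 9.03 after R5020. In KR cells it read 9.02 and 9.03 with vehicle, and 9.04 and 8.83 after R5020. The log2 difference was 0.45 ± 0.12 in WT cells (1.37-fold higher, limma adjusted p = 0.00682), which failed only the limit on size, and -0.09 ± 0.12 in KR cells, where the groups overlapped. The effects differed by -0.54 ± 0.17 between KR and WT cells, with an adjusted p of 0.128, so this difference did not pass. The other 2 probes of PER2 lay near or under the background limit, with effects between 0.01 and 0.15 in the receptor lines.

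PER1 was under the background limit on all 12 arrays, at 5.30 to 5.96, so its values give no measured fold. Its signal differed by -0.33 ± 0.13 with R5020 in PR-null cells, by 0.36 ± 0.13 in WT cells (adjusted p = 0.0676) and by 0.26 ± 0.13 in KR cells. PER3 lay between 6.94 and 7.31 on all arrays, and its R5020 effects were 0.08, -0.05 and 0.01 in PR-null, WT and KR cells, each ± 0.12. PER3 thus showed no difference past its standard error with R5020 in any line.

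None of the REV-ERB genes and CLOCK was called in any comparison. NR1D1 was under the background limit on every array, at 5.73 to 6.02. NR1D2 read 6.61 to 7.12 over the 12 arrays, with R5020 effects of 0.16 ± 0.11 in PR-null, 0.00 ± 0.11 in WT and -0.03 ± 0.11 in KR cells. CLOCK, the activator, read 7.06 to 7.59 by its brighter probe, with R5020 effects of 0.03, 0.12 and -0.04, each ± 0.11. Its second probe read 7.21 and 6.98 in vehicle-treated WT cells against 6.66 and 6.72 in PR-null cells (0.41 ± 0.12, adjusted p = 0.0224), a difference that the brighter probe did not show (-0.09 ± 0.11). With vehicle the second probe lay lower in KR than in WT cells (-0.42 ± 0.12, limma adjusted p = 0.0472), against -0.13 ± 0.11 by the brighter probe. Its R5020 effects were -0.02, -0.23 and 0.01 in PR-null, WT and KR cells, each ± 0.12, so the WT sign was opposite to that of the brighter probe. The probes of CLOCK thus disagreed on the vehicle differences, and neither was called.

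**Figure D2:**
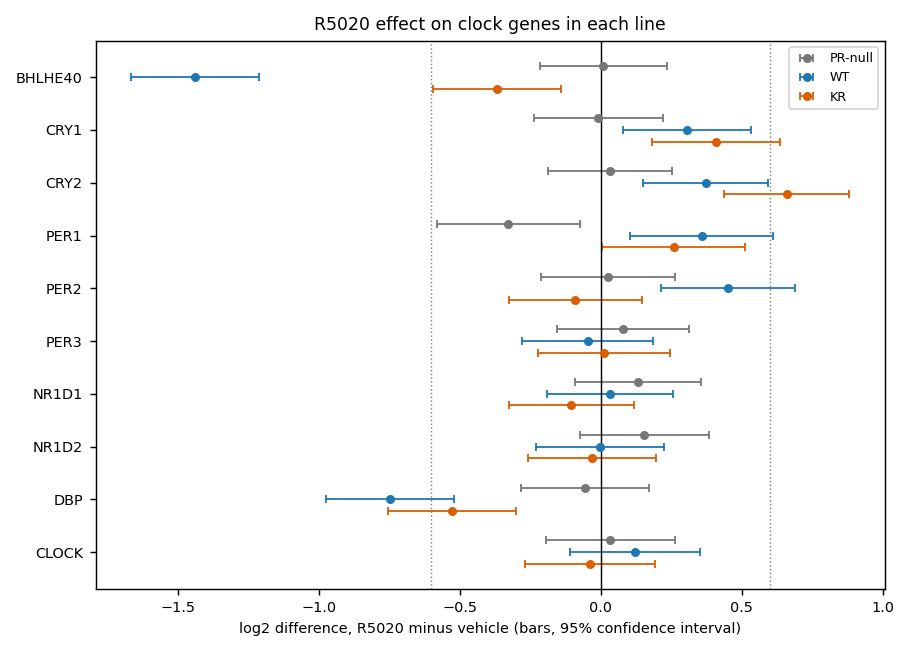
R5020 minus vehicle log2 difference of each clock gene in PR-null, WT and KR cells, with points for the limma estimates, bars for 95% confidence intervals and dotted lines at 0.6 in either direction. BHLHE40 in WT cells (-1.44) stands furthest from 0, DBP lies left of 0 in both receptor lines, CRY2 lies right of 0 in both, and the PR-null interval of every gene but PER1 includes 0.

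PR-null cells show what R5020 did in a line without PR, and receptor and clone cannot be told apart between lines. Set against them, the effect in WT cells was lower for BHLHE40 by 1.45 ± 0.16 (log2 difference of effects -1.45, limma adjusted p = 2.81e-09) and for DBP (-0.69 ± 0.16, adjusted p = 0.00331). These were 2 of 10 genes, beside 5.21% of all genes. The DBP call was lost without replicate 1 or replicate 2 of vehicle-treated PR-null cells, replicate 1 of R5020-treated PR-null cells, replicate 2 of vehicle-treated WT cells or replicate 1 of R5020-treated WT cells, with DBP values from -0.70 to -0.59. PER1, under background throughout, differed by 0.69 ± 0.18 (adjusted p = 0.0114) and was called without replicate 1 of vehicle-treated PR-null cells (0.83) or replicate 2 of vehicle-treated WT cells (0.93). In KR cells the effect differed from that in PR-null cells for CRY2 (0.63 ± 0.15, adjusted p = 0.00963), 1 of 10 genes beside 3.75% of all. Against PR-null cells, the KR effect did not pass for DBP (-0.47 ± 0.16, adjusted p = 0.107) or BHLHE40 (-0.38 ± 0.16, adjusted p = 0.276). Nor did that of CRY1, at 0.42 ± 0.16 by its brighter probe (adjusted p = 0.196). By the second CRY1 probe it was 0.50 ± 0.16 in KR cells (adjusted p = 0.0859) and 0.55 ± 0.16 in WT cells (adjusted p = 0.0369), neither called. That CRY2 call stood at the edge of the threshold and was lost when any 1 array was left out except those of R5020-treated WT cells, with CRY2 values from 0.55 to 0.70.

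Without ligand, the lines differed in CRY1. In vehicle-treated cells the brighter CRY1 probe read 8.35 and 8.52 in PR-null, 7.60 and 7.65 in WT and 7.86 and 7.78 in KR cells, so both receptor lines lay under the PR-null line with no overlap. The log2 difference was -0.81 ± 0.11 in WT cells (1.75-fold lower, limma adjusted p = 8.19e-07) and -0.62 ± 0.11 in KR cells (1.53-fold lower, adjusted p = 1.49e-04). CRY1 was 1 of 10 genes called in each, beside 3.16% of all genes for WT and 2.6% for KR cells. The second CRY1 probe gave -0.82 ± 0.12 for WT (adjusted p = 1.08e-06) and -0.52 ± 0.12 for KR cells (adjusted p = 0.00203). The CRY1 difference of KR cells passed the limit on size by little, and it was not called without replicate 2 of vehicle-treated PR-null cells (-0.53) or replicate 2 of vehicle-treated KR cells (-0.58). Whether the arrays of a line came from 1 clone or several is not given in the sources used here, so receptor and clone cannot be told apart, which holds for each comparison between lines.

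By mean level of the brighter probe CRY1 ran from vehicle-treated WT (7.63) and KR cells (7.82) through R5020-treated WT (7.93) and KR cells (8.23) to R5020-treated (8.43) and vehicle-treated PR-null cells (8.44). By this probe the treated KR arrays (8.25 and 8.21) lay under the lowest PR-null array (8.29), whereas by the second CRY1 probe they (8.20 and 8.20) lay within the range of the PR-null arrays (8.07 to 8.34). BHLHE40 lay above the PR-null line in vehicle-treated cells of both receptor lines, by 0.45 ± 0.11 in WT (adjusted p = 0.00549) and 0.48 ± 0.11 in KR cells (adjusted p = 0.00396), under the limit on size. DBP lay above it by 0.30 ± 0.11 and 0.29 ± 0.11, with adjusted p of 0.112 and 0.147. With vehicle, KR and WT cells differed in 0 of 10 genes, beside 0.853% of all genes, and 1 gene, PER2, had an unadjusted p under 0.05 by its brightest probe (0.32 ± 0.12, adjusted p = 0.199). The second probes of CLOCK (-0.42 ± 0.12, limma adjusted p = 0.0472) and CRY1 (0.29 ± 0.12, adjusted p = 0.253) also had an unadjusted p under 0.05, and neither was called.

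**Figure D3:**
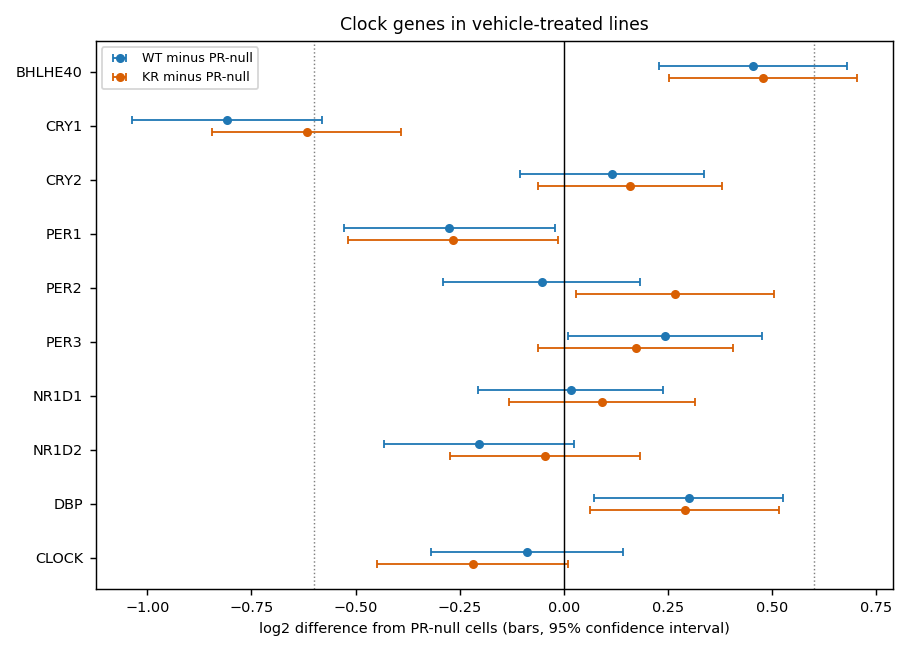
Log2 difference of each clock gene from PR-null cells in vehicle-treated WT and KR cells, with points for the limma estimates, bars for 95% confidence intervals and dotted lines at 0.6 in either direction. CRY1 lies left of the limit in both lines (-0.81 and -0.62), and BHLHE40 and DBP lie right of 0.

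Further genes of the clock were read from a list of 29, of which 25 had a probe. The others are not analysed here. In WT cells 3 were called higher with R5020 (NFIL3, CIART and NOCT) and 1 lower (TEF), beside 3.3% and 2% of all genes. In KR cells 3 were called higher (NFIL3, CIART and NAMPT) and 1 lower (TEF), beside 2.7% and 1.38% of all genes. In PR-null cells 0 of 25 were called by limma, beside 0% of all genes, with 0 at an unadjusted p under 0.05, and in the difference between KR and WT effects 0 were called, beside 1.01% of all genes, with 4 at an unadjusted p under 0.05. The comparisons between lines under 1 treatment held 0 calls as well. Of all genes, 3.16% were called for vehicle WT against PR-null and 2.6% for vehicle KR against PR-null. For KR against WT the shares called were 0.853% with vehicle and 2.56% with R5020. At an unadjusted limma p under 0.05 there were 10, 8, 9 and 4 of the 25 genes, in that order. That rule is looser than a call, and its share over all genes was not taken. These counts therefore cannot be set beside the shares called. The median R5020 effect over the 25 genes was 0.04 in WT and 0.07 in KR cells, and over all genes it was -0.01 and -0.02.

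By brightest probe, the 2 largest R5020 effects of the list in either receptor line were those of 2 repressors. CIART (CHRONO), a repressor of CLOCK and BMAL1, read 6.35 and 6.36 in vehicle-treated WT cells and 7.75 and 7.86 after R5020, a rise of 1.45 ± 0.11 (2.74-fold, limma adjusted p = 9.22e-14). In KR cells CIART went from 6.66 and 6.52 to 8.29 and 8.17, a rise of 1.64 ± 0.11 (3.11-fold, adjusted p = 2.31e-15), and in PR-null cells it read 6.49 to 6.82 in both treatments. NFIL3, which represses through D-boxes, the sites DBP activates, went from 7.52 and 7.66 to 8.55 and 8.49 in WT cells (0.93 ± 0.11, adjusted p = 9.69e-09) and from 7.33 and 7.33 to 8.57 and 8.69 in KR cells (1.29 ± 0.11, adjusted p = 1.28e-12). Neither gene differed between KR and WT effects past the threshold, at 0.19 ± 0.16 for CIART (adjusted p = 0.825) and 0.36 ± 0.16 for NFIL3 (adjusted p = 0.443). The other repressors, BHLHE41 and CIPC, were not called. CIPC went the other way in KR cells (-0.50 ± 0.12, adjusted p = 0.0034), short only of the limit on size. Its second probe gave -0.34 ± 0.11 there (adjusted p = 0.058), and its brightest probe gave -0.16 ± 0.12 in WT cells. BHLHE41, above background in 3 of the 6 groups, differed by 0.25 ± 0.11 in KR cells (adjusted p = 0.242).

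TEF, a D-box activator of the same family as DBP, fell with R5020 in both receptor lines as well. It went from 7.03 and 6.94 to 6.31 and 6.38 in WT cells (-0.64 ± 0.11, limma adjusted p = 2.21e-05) and from 7.12 and 7.34 to 6.44 and 6.44 in KR cells (-0.79 ± 0.11, adjusted p = 5.3e-07). HLF, the other member of that family, lay under background in all groups. Of the outputs, NOCT (nocturnin) rose in WT cells (0.68 ± 0.12, adjusted p = 5.92e-05) and had a difference of 0.02 ± 0.12 in KR cells, and the effects differed by -0.65 ± 0.17, which did not pass (adjusted p = 0.0472). In PR-null cells NOCT differed by 0.24 ± 0.12 (7.99 to 8.22 by mean), and its WT effect against that in PR-null cells, 0.44 ± 0.17, did not pass (adjusted p = 0.172). NAMPT, the rate-limiting enzyme of NAD salvage, rose by 0.90 ± 0.11 in KR cells (adjusted p = 3.84e-08) and had a difference of 0.58 ± 0.11 in WT cells by its brightest probe, and its second probe gave 1.02 ± 0.11 in WT and 0.73 ± 0.11 in KR cells, both called. Of BMAL1 and the other activators and partners, 0 of 5 were called, and only BMAL1 and RORA of them were above background in all groups while BMAL2, NPAS2 and RORB were above it in none, with BMAL1 at -0.32 ± 0.12 in WT and -0.34 ± 0.12 in KR cells (adjusted p = 0.0865 and 0.0859). The 9 modifiers of PER and CRY proteins with a probe, casein kinases and ubiquitin ligases among them, had R5020 effects by brightest probe between -0.21 and 0.20 in WT and between -0.29 and 0.23 in KR cells, with 0 called. The other 2 probes of the casein kinase CSNK1A1 gave 0.45 ± 0.11 (adjusted p = 0.00644) and 0.50 ± 0.12 (adjusted p = 0.00334) in KR cells, under the limit on size. In the promoter windows, CIART held 3 E-boxes and 2 TEF windows held 1 each, a motif in 6.34% of all windows. NOCT held the PR hexamer TGTTCT on the opposite strand from -232 to -227 (12.4% of all windows). NFIL3 held the hexamer AGGTCA on the opposite strand from -9 to -4 (12.1% of all windows).

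**Figure D4:**
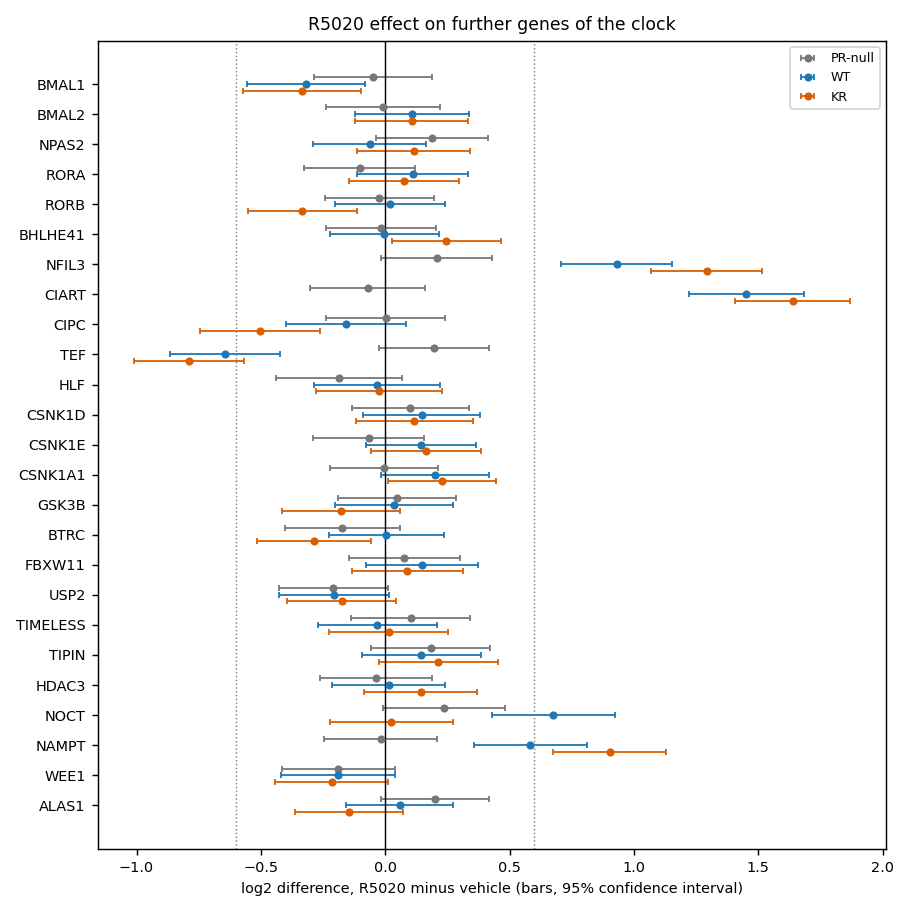
R5020 minus vehicle log2 difference of 25 further genes of the clock in PR-null, WT and KR cells, with points for the limma estimates, bars for 95% confidence intervals and dotted lines at 0.6 in either direction. CIART and NFIL3 lie right of the limit in WT and KR cells and TEF left of it in both, while most of the other genes lie near 0.

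Other genes followed the same course over the 12 arrays. For the 4 clock genes whose group means spanned over 0.6 log2 units, Pearson's r was taken with 2917 genes that were above background on at least 2 arrays and had a span of at least 0.6, as a description, since the arrays share lines and treatments. Genes with LOC, LINC or orf symbols were left out of these 2917. BHLHE40 was most like SERTAD3 (r = 0.960), TRIL (0.952) and ELF5 (0.940), the last an ETS factor of the mammary epithelium. ELF5 means were 12.2 and 10.3 in WT cells with vehicle and R5020, and 12.3 and 11.3 in KR cells. DBP was most like GTPBP3 (0.951), CCNO (0.948) and CRACDL (0.948), and CCNO means were 10.8 and 8.70 in WT cells and 10.7 and 8.91 in KR cells. CRY1 was most like ERRFI1 (0.940), an inhibitor of the EGF receptor, FNDC3B (0.938) and ENPP3 (0.935). ERRFI1 means were 8.99 in vehicle-treated PR-null, 7.86 in WT and 8.34 in KR cells. CRY2 was most like SEMA6A (0.983), RANBP3L (0.982) and SGPP2 (0.982). SEMA6A and RANBP3L were under the background limit by mean in 4 of the 6 groups, at 5.79 to 6.07 and 5.79 to 5.97, where their order is not measured, and ENPP3 was under it in vehicle-treated WT cells (5.97). SGPP2 means were 6.78 and 8.23 in WT cells with vehicle and R5020, and 6.96 and 9.19 in KR cells.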

How the data were processed

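Gene expression was measured in 12 samples, 2 in each of 6 groups of line and treatment. The authors log2 transformed and quantile normalized the bead array signals with lumi, whose version the sources used do not give, and the log2 intensities they deposited hold each array apart. No further normalization was applied here. The 12 signal columns of the non-normalized table carry codes that no label explains and were not used. Of the probes, 30113 carried 1 gene symbol, 8 several and 17110 none, and the brightest probe by mean over the arrays stood for its gene, with other probes given beside it.

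All 47231 probes were fitted in limma 3.58.1 (R 4.3.3) with group means as coefficients, and contrasts were moderated by empirical Bayes, with 37.1 prior and 6 residual degrees of freedom. Benjamini-Hochberg adjustment ran over every probe of a contrast, at the thresholds of the study. The p-values and standard errors rest on the spread between duplicate experiments, drawn by the prior toward a spread common to all probes. With 37.1 prior against 6 residual degrees of freedom, they follow that common spread more than a gene's own duplicates. The number of arrays limits the precision. The background limit is the 95th percentile of 457 olfactory receptor probes. All 10 clock genes are named, with the further listed genes called in any contrast and the 3 genes most like each clock gene with a span over 0.6. Members, lists and limit were chosen with earlier results of these data known. Replicate numbers were checked for pairing over 12587 probes, where deviations of same-numbered arrays had correlations of -0.0468 to 0.0814 over 15 pairs of groups, with 0 over 0.1, and replicate number was left out of the model. Alternatives were a replicate block, other priors, a filter on dim probes, cyclic loess, normexp background correction with offset 50, the mean of a gene's probes, other thresholds, fits of the groups compared alone and each array left out.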

Additional observations from a re-analysis of the deposited data

Results flagged for a closer look

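The R5020 effect of 3 clock genes differed between lines by the test of the difference itself. For BHLHE40 the effect in KR cells differed from that in WT cells by 1.07 log2 units, and the effect in WT cells differed from that in PR-null cells by -1.45. For DBP the effect in WT cells differed from that in PR-null cells by -0.69, and by -0.79 to -0.59 with each array left out. For CRY2 the effect in KR cells differed from that in PR-null cells by 0.63 (limma adjusted p = 0.00963), and by 0.55 to 0.70 with each array left out. The calls of DBP and CRY2 depended on single arrays, as given above. With 2 arrays in a group, single arrays far from their group could not be searched for.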

How the results depend on the processing

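No call of a clock gene changed direction under the alternatives run. The counts of clock genes called in the R5020 effect in PR-null cells (0), in the difference between KR and WT effects (1, BHLHE40), between KR and WT cells with vehicle (0) and with R5020 (1, BHLHE40) did not move under any alternative, and with each array left out they ranged from 0 to 0, 1 to 1, 0 to 0 and 1 to 1. With a log2 difference over 1, the count in WT cells was 1 (BHLHE40), in KR cells 0, in the WT effect against PR-null 1, in the KR effect against PR-null 0, and, with vehicle, 0 for WT against PR-null and 0 for KR against PR-null. At an adjusted p under 0.05 with no limit on the difference, the counts were 4 in WT cells (PER2, CRY2, BHLHE40 and DBP), 4 in KR cells (CRY1, CRY2, BHLHE40 and DBP), 3 in the WT effect against PR-null (PER1, BHLHE40 and DBP), and 2 in each vehicle difference from PR-null cells (CRY1 and BHLHE40). With normexp correction (CRY1 at -0.59) or with the mean of all probes (CRY1 at -0.57), the vehicle difference of KR cells held 0 calls. With only the groups of the contrast, the KR effect against PR-null held 0 calls, with CRY2 at an adjusted p of 0.0103. With each array left out, the counts ranged from 2 to 3 in WT cells (PER1 at 0.60 without replicate 2 of vehicle-treated WT cells), from 1 to 2 in KR cells, from 1 to 2 for the WT and from 0 to 1 for the KR effect against PR-null, from 1 to 1 for the vehicle difference of WT and from 0 to 1 for that of KR cells. PER1 and NR1D1 had no value when dim probes were left out. The cause of these changes was not tested.

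With the replicate number as a block, which does not pair the samples here, the count of calls in the KR effect against PR-null went from 1 to 0 (CRY2, still at 0.63) and that in the WT effect against PR-null from 2 to 3 (PER1 added, adjusted p = 0.00436). The replicate block changed no other count.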
